A study of Mus musculus with 12 samples.

Results

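Eukaryotic protein synthesis is driven by translation initiation factors (eIFs) and elongation factors (eEFs). The mRNAs that encode them were followed here in ribosome pulldowns aimed at mouse CA1 pyramidal neurons, with and without Fmr1. Members were the genes whose symbol starts with Eif or Eef, leaving out the old Eif2c names of Argonaute genes, and that had at least 15 reads over all libraries. The table held 64 such genes, of which 62 reached the limit, among 17823 genes that did so and 24079 in all. Just outside it lay Eif3j1 with 6 reads and Eif3j2 with 0 reads, near-identical genes for one eIF3 subunit. Of their 50-base stretches, 50.9% in Eif3j1 and 91.8% in Eif3j2 occurred in other genes too. Just inside lay Eif4e1b, an oocyte form of the cap-binding protein, with 41 reads, then Eif4ebp1 with 1029 and Eif4ebp3 with 2001.

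Initiation begins when eIF2 carries the initiator tRNA to the small ribosomal subunit and the eIF4F complex, made of the cap-binding protein eIF4E, the scaffold eIF4G and the helicase eIF4A, recruits the mRNA. Both steps are regulated, the first by kinases that phosphorylate eIF2 and by its exchange factor eIF2B, the second by repressors that bind eIF4E. During elongation eEF1A delivers aminoacyl-tRNAs and eEF2 moves the ribosome along the mRNA. Fmr1 encodes FMRP, an RNA-binding protein of neurons that represses translation, and its silencing causes fragile X syndrome.

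All mice carried the Wfs1-CreERT2 transgene and the RiboTag allele, in which Cre recombination adds an HA epitope to the ribosomal protein Rpl22, and were C57BL/6J males aged 2 to 6 months. They received tamoxifen for 3 days, and 1 week later tagged ribosomes were immunoprecipitated from the whole hippocampus. Wild-type (WT) littermates were compared with Fmr1 knockout (Fmr1 KO) mice, with 6 libraries per genotype, each from a pool of 4 to 6 mice. Because the Wfs1 promoter drove Cre, the tag marked Wfs1-expressing cells, and the values are ribosome-bound mRNA rather than protein or rates of synthesis. In such pooled tissue, fewer cells of a type and less RNA per cell cannot be told apart.

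The libraries held 39400980 to 55745464 counted reads in WT and 43106629 to 65565479 in Fmr1 KO. Fmr1 itself had 1971 to 2608 reads in WT, 0 in 5 of the Fmr1 KO libraries and 1 in the last. Wfs1, the gene whose promoter drove Cre, was at 942 to 1434 CPM (reads scaled to library size) in WT and 941.8 to 1176 in Fmr1 KO (log2 difference −0.27, edgeR adjusted p = 0.410). Markers of other cells were also present: the summed level of 4 choroid plexus genes ran from 6347 to 11820 CPM in WT and from 8267 to 17420 in Fmr1 KO, where all 4 had higher means, and that of 4 endothelial genes from 25.8 to 39.6 CPM in WT and from 32.1 to 48.7 in Fmr1 KO. All 5 astrocyte genes likewise had higher means in Fmr1 KO, with sums of 698 to 846 CPM in WT and 762.5 to 1188 in Fmr1 KO. All 5 CA1 pyramidal genes had lower ones, as did 4 of 4 dentate granule genes (median log2 difference −0.12), 4 of 5 oligodendrocyte genes (−0.15), 4 of 5 CA2 and CA3 genes (−0.05) and 5 of 7 interneuron genes (−0.09), while 4 of 5 microglia genes had higher ones (0.02). The sums of the 5 CA1 genes ran from 7549 to 9240 CPM in WT and from 7294 to 8638 in Fmr1 KO. No library of unpurified hippocampus was among the samples, so enrichment was not measured here. At an unadjusted p of 0.05 by edgeR, 2 choroid plexus, 3 endothelial and 2 astrocyte genes were higher and 2 CA1 genes and 1 gene of the CA2 and CA3 list (Cacng5) lower, none passed after adjustment, and their part in the values below was not tested.

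Many mRNAs of the translation machinery start with a terminal oligopyrimidine (TOP) motif, a run of C and T bases at the cap that places them under the control of mTOR and Larp1. From the RefSeq promoter table of build GRCm38.p6, the stretch from 8 bases before to 22 bases into the annotated transcript start was searched for runs of at least 7 C or T bases on the gene's own strand. Such a run stood in 30.6% of the 49 members with an entry (15 genes) and in 20.1% of all 27025 genes with an entry. The latter were not limited to the genes tested here. The 30-base stretches below span the annotated transcript starts of abundant elongation factors and of known TOP members. They also span those of the X- and Y-linked pair that holds the member with the lowest p. For Eif2s3y, the start in the promoter entry lies inside the gene span given below (chrY:1010562-1049134). Its window therefore does not cover the first base of that span. The longest run within each stretch is in capitals, and it need not lie at the start itself.

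Eef1a1, chr9:78481703-78481732, minus strand: ccgCCCTCTTCCCgagggtgggggagaacg
Eef2, chr10:81176623-81176652, plus strand: ggccgggcgttgacgtcagcggTCTCTTCC
Eif3f, chr7:108934407-108934436, plus strand: taggCTCTCTCTCTTTCTCggcaagatggc
Eif4b, chr15:102073765-102073794, plus strand: ccgtcggacgccgcgccaCCCCCTCgcgct
Eef1b2, chr1:63176823-63176852, plus strand: gcagttccgccggaagtagccgaggccttg
Eif2s3x, chrX:94212630-94212659, minus strand: gcaTTTTCCTTTTCTCTCCgagcaagatgg
Eif2s3y, chrY:1010587-1010616, plus strand: ccacagccaCTTCCTTCTTTCgtgagcaag

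The run was longest in Eif2s3x (16 bases), Eif3f (15 bases) and Eif2s3y (12 bases) of those shown, and was 10 bases in Eef1a1 and 8 bases in Eef2, where it stood at the end of the window. No run of that length lay in the window of Eef1b2. The table had no entry for Eef1d, Eef1g, Eif3e and Eif3h.

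The members together took 1.10% to 1.18% of all counted reads in WT (median 1.13%) and 1.09% to 1.22% in Fmr1 KO (median 1.16%), with overlapping ranges. Scaled to exon length, their levels differed widely, as the plot of CPM per kilobase (CPM/kb) by role shows. At the top stood Eef1a1, the ubiquitous eEF1A that brings aminoacyl-tRNA to the ribosome, at 1091 CPM/kb in WT, followed by its neuronal and muscle form Eef1a2 at 460 CPM/kb and the translocase Eef2 at 298.5 CPM/kb. The helicases Eif4a2 and Eif4a1 came next at 280 and 233 CPM/kb, with the start-codon factor Eif1 at 232 CPM/kb. At the bottom stood the stress kinases Eif2ak4 and Eif2ak2 at 2.05 and 2.07 CPM/kb, the repressors Eif4ebp2 and Eif4ebp1 at 1.78 and 0.913 CPM/kb, and Eif4e1b at 0.0431 CPM/kb.

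**Figure D1:**
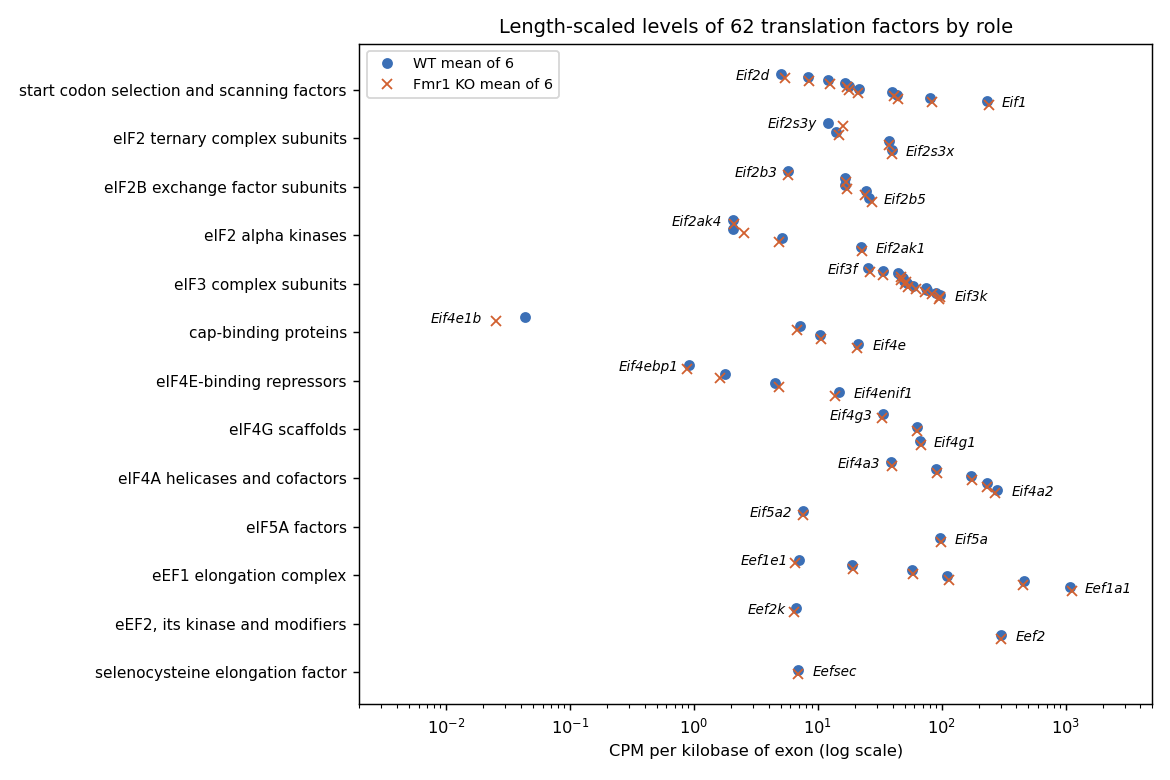
Levels of the 62 translation factors by role, in CPM per kilobase of exon on a log scale, with filled circles for the mean of 6 WT libraries and crosses for the mean of 6 Fmr1 KO libraries; the lowest and highest member of each role is named. Eef1a1 is highest at 1091 CPM/kb in WT and 1116 in Fmr1 KO, Eif4e1b is far below all others, and circles and crosses nearly coincide in every role except at Eif2s3y, Eif2ak2 and Eif4e1b.

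Across genotypes, 0 of the 62 members passed when edgeR's p-values were adjusted and held to 0.05, where 0.0224% of all genes did (4 of 17823). In DESeq2, which gave Eif4e1b no adjusted p, 0 members passed. There, 0.571% of the genes with an adjusted p did (84 of 14713). At an unadjusted p of 0.05, 2 members were higher and 0 lower in Fmr1 KO by edgeR, or 3.23% of the members against 7.96% of all genes (4.29% higher and 3.67% lower). By DESeq2, 3 members lay under that unadjusted limit against 8.47% of all genes. No member had WT and Fmr1 KO libraries that did not overlap, against 0.410% of all genes without overlap and lower and 0.213% without overlap and higher.

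The differences were small and well bounded. Of the 62 members, 54 had a log2 difference within 0.1 of 0. The 95% interval of the fold lay within 1.2-fold either way for 50 members (80.6%) and for 31.0% of all genes, a limit chosen after the values were seen. The members also had more reads than most genes, with a median of 41710 over the 12 libraries against 7666 for all genes tested, and a smaller median standard error of the log2 difference (0.07 against 0.12). Within a genotype, the SD of log2 CPM had a median of 0.12 over 61 members and 0.20 over the 15673 genes seen in every library. It was lowest for the kinase gene Eef2k (0.05) and highest for the repressor gene Eif4ebp2 (0.32) and for Eif2s3y (0.31).

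The median log2 difference of the members was 0.02, with 40 above 0 and 22 below (64.5% above), beside a median of 0.00 and 51.3% above 0 for all genes tested. This split depended on single libraries and on the scaling between libraries. With one library left out, between 29 members (46.8%, without Fmr1 KO replicate 2) and 46 members (74.2%, without Fmr1 KO replicate 3) were above 0. With total reads in place of TMM factors, 50 of the 62 members (80.6%) and 58.1% of all genes lay above 0, with medians of 0.04 and 0.03. The plot of log2 differences shows each member with its interval.

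**Figure D2:**
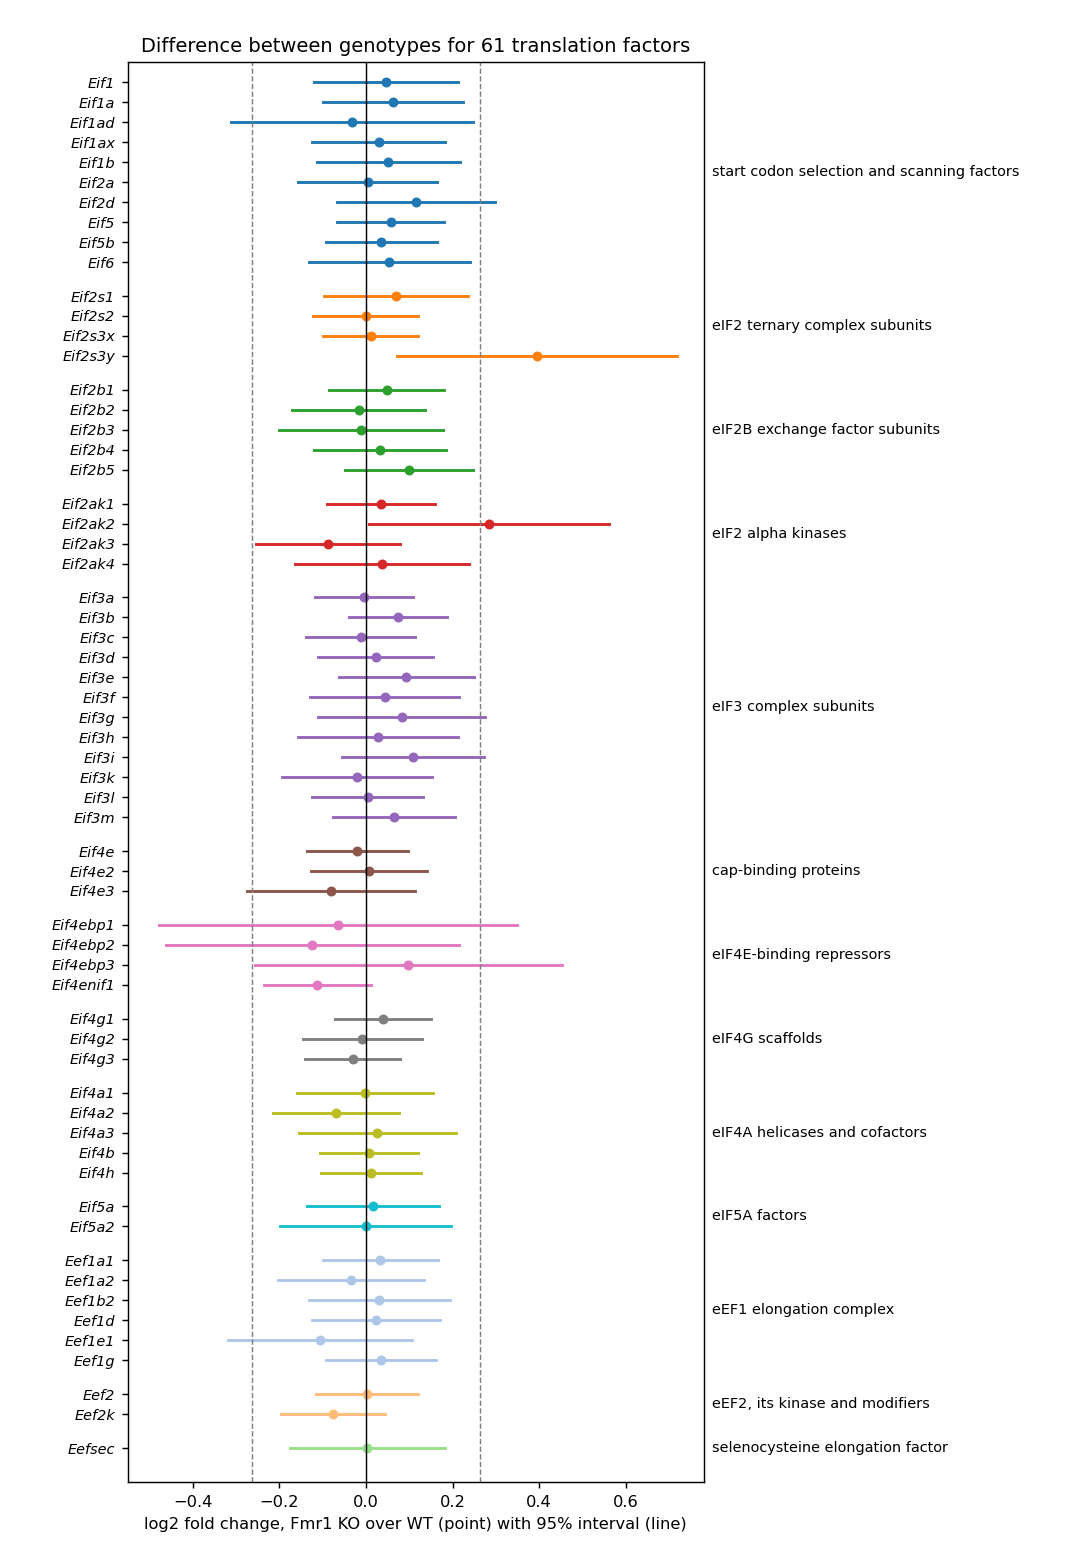
Log2 fold change of Fmr1 KO over WT (points) with its 95% interval from edgeR (lines) for 61 translation factors in order of role; the dashed lines mark 1.2-fold either way, and Eif4e1b, with 41 reads in all, is left out. Only the intervals of Eif2s3y and Eif2ak2 lie wholly on one side of 0, and the 3 Eif4ebp genes have the widest intervals of those drawn.

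Among the eIF2 subunits, Eif2s1 encodes the alpha subunit that stress kinases phosphorylate, and its level was 42.4 to 53.6 CPM in WT (median 48.4) and 41.0 to 55.9 in Fmr1 KO (median 51.1). Eif2s2, the beta subunit that docks eIF5, was at 87.3 to 104 CPM in WT (median 93.8) and 88.3 to 101 in Fmr1 KO (median 94.8). In both cases the 2 ranges lay almost on top of each other. The log2 differences were 0.07 ± 0.08 (SE) for Eif2s1 and 0.00 ± 0.06 for Eif2s2, with edgeR adjusted p of 0.900 and 0.999.

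The gamma subunit of eIF2, which binds GTP and the initiator tRNA, is encoded in the mouse by both Eif2s3x on the X chromosome and Eif2s3y on the Y chromosome (chrY:1010562-1049134 in GRCm38). Eif2s3x was at 140 to 152 CPM in WT (median 146.5) and 135 to 155 in Fmr1 KO (median 149.6), the second least variable member within genotypes. Its log2 difference was 0.01 (95% interval −0.10 to 0.12). Of its 50-base stretches, 34.6% also occurred in another gene, so its count is less certain than that of its Y-linked partner, where the share was 0%.

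Eif2s3y had the lowest p of all members. Its WT libraries ran from 18.5 to 27.5 CPM (median 22.3, mean 22.2 ± 3.15 SD, n = 6) and its Fmr1 KO libraries from 20.4 to 46.4 CPM (median 27.0, mean 29.2 ± 8.91 SD, n = 6). A single library, Fmr1 KO replicate 5, stood far above the rest at 46.4 CPM, and the other Fmr1 KO libraries ended at 28.6 CPM, close to the highest WT value. The log2 difference was 0.40 ± 0.15 (SE, 95% interval 0.07 to 0.72), with an unadjusted p of 0.0194 and an adjusted p of 0.501 in edgeR. Without that library it was 0.21, with an unadjusted p of 0.0646 and an adjusted p of 0.754 in edgeR. It was also the most deeply sequenced library, and the part of depth in its value was not tested.

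The library with the high Eif2s3y value did not stand out as far at other Y-linked genes, which the plot of Y-linked genes shows. Ddx3y, a Y-linked RNA helicase, was at 55.7 CPM there against 50.7 to 71.1 in all Fmr1 KO libraries. Kdm5d, a histone demethylase gene, was at 19.2 CPM there, in a range of 15.2 to 19.2 in Fmr1 KO. Uty was at 9.88 CPM, in a range of 6.75 to 9.88. At both genes this library was the highest of either genotype, with the next at 18.2 CPM for Kdm5d and 9.39 CPM for Uty. For these 3 genes the log2 differences were −0.05, 0.08 and 0.10, with edgeR adjusted p of 0.937, 0.889 and 0.909. As a share of Eif2s3x within each library, Eif2s3y stood at 12.2% to 18.3% in WT and at 13.7% to 29.98% in Fmr1 KO, and the difference of the log2 ratios was 0.35 (exact permutation test, two-sided, p = 0.0584, adjusted p = 0.208 over 8 pairs).

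**Figure D3:**
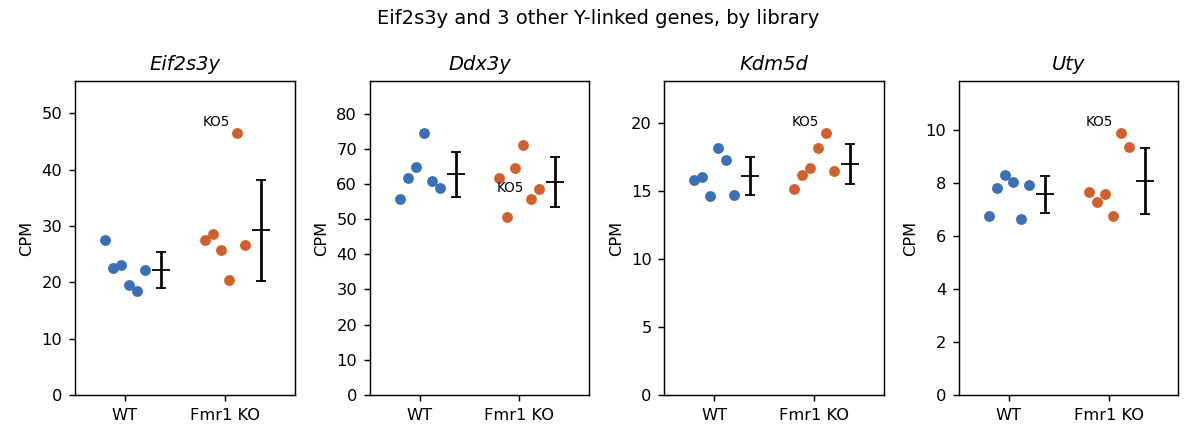
CPM of Eif2s3y and of the Y-linked genes Ddx3y, Kdm5d and Uty in each of the 6 WT and 6 Fmr1 KO libraries (points), with the mean and SD beside each group; Fmr1 KO replicate 5 is marked. It lies at 46.4 CPM for Eif2s3y, far above the next library at 28.6, and within the other libraries for Ddx3y. It is also the highest library for Kdm5d (19.2 CPM, next 18.2) and Uty (9.88 CPM, next 9.39).

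Recycling of eIF2 depends on eIF2B, the exchange factor that reloads it with GTP. Its 5 subunit genes lay between 5.74 CPM/kb (Eif2b3) and 25.7 CPM/kb (Eif2b5, the catalytic epsilon subunit) in WT, a ratio of 4.48. Eif2b5 itself was at 60.2 to 70.2 CPM in WT (median 65.7) and 58.7 to 76.2 in Fmr1 KO (median 72.4), with a log2 difference of 0.10 ± 0.07 (edgeR adjusted p = 0.799). Over the 5 subunits the log2 differences ran from −0.02 to 0.10, with 3 above 0 (3 to 5 with one library left out) and 2 below. Eif2b3 was at 21.1 to 25.6 CPM in WT (median 22.8) and 18.4 to 26.1 in Fmr1 KO (median 23.4), with a log2 difference of −0.01 (edgeR adjusted p = 0.990).

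Phosphorylation of eIF2 alpha is the work of 4 kinases that sense different stresses, and their length-scaled levels differed by 10.8-fold. Eif2ak1 (HRI, the heme-regulated kinase) was the highest at 22.2 CPM/kb in WT, with 90.3 to 102 CPM in WT (median 95.5) and 90.2 to 105 in Fmr1 KO (median 99.6). Eif2ak3 (PERK, which senses unfolded protein in the endoplasmic reticulum) was at 22.3 to 27.4 CPM in WT (median 24.3) and 20.03 to 25.6 in Fmr1 KO (median 23.7). Eif2ak4 (GCN2, which senses uncharged tRNA) was at 13.8 to 16.6 CPM in WT (median 14.8) and 13.3 to 18.4 in Fmr1 KO (median 14.9). All 3 overlapped widely, with log2 differences of 0.03, −0.09 and 0.04 and edgeR adjusted p of 0.942, 0.857 and 0.962.

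Eif2ak2 (chr17:78850504-78882572), which encodes PKR, the kinase activated by double-stranded RNA, was the other member under an unadjusted p of 0.05. It was at 6.17 to 11.9 CPM in WT (median 8.79, mean 8.91 ± 1.91 SD, n = 6) and at 9.63 to 12.9 CPM in Fmr1 KO (median 10.9, mean 10.9 ± 1.16 SD, n = 6). Of the 6 WT libraries, 4 were below the lowest Fmr1 KO library, and the ranges overlapped. The log2 difference was 0.28 ± 0.13 (SE), with an unadjusted p of 0.0452 and an adjusted p of 0.618 in edgeR. It lost the unadjusted limit without any one of 8 libraries, with values between 0.20 without WT replicate 6 and 0.29 without WT replicate 3.

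The eIF3 complex, the largest initiation factor, bridges the small subunit and eIF4G. Its 12 members ran from 25.5 CPM/kb (Eif3f) to 96.3 CPM/kb (Eif3k) in WT, a ratio of 3.77, with a median of 51.3 CPM/kb. Eif3f was at 58.1 to 74.6 CPM in WT (median 61.03) and 56.4 to 72.0 in Fmr1 KO (median 67.7), and Eif3k at 92.4 to 119 in WT (median 99.4) and 86.6 to 112 in Fmr1 KO (median 106). Log2 differences over the 12 subunits ran from −0.02 to 0.11, with 9 above 0 (7 to 12 with one library left out), a median of 0.04 and no edgeR adjusted p below 0.805. Those of Eif3f and Eif3k were 0.04 and −0.02. The count of Eif3d is uncertain, since 37.2% of its 50-base stretches occur in another gene.

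A further list of 10 factors held those of scanning and start-codon selection along with others of different roles, such as Eif6 and Eif2d. They ranged from 5.004 CPM/kb (Eif2d, an unconventional initiator-tRNA carrier) to 232 CPM/kb (Eif1, the guardian of start-codon fidelity). Eif5, the GTPase activator of eIF2, was at 158 to 179 CPM in WT (median 164) and 158 to 192 in Fmr1 KO (median 173). Eif6, which keeps the large subunit from joining too early, was at 37.2 to 45.3 CPM in WT (median 38.6) and 35.6 to 50.8 in Fmr1 KO (median 41.4). Eif2d had 17.2 to 22.5 CPM in WT (median 21.1) and 19.6 to 25.7 in Fmr1 KO (median 22.9), and Eif1 had 277 to 354 in WT (median 295) and 267 to 367 in Fmr1 KO (median 321). Groups overlapped at each of them, and the log2 differences of Eif5, Eif6 and Eif1 were 0.06, 0.05 and 0.05. The log2 difference was above 0 in 9 of the 10 (6 to 9 with one library left out, 6 without Fmr1 KO replicate 2), between −0.03 (Eif1ad) and 0.12 (Eif2d), with no edgeR adjusted p below 0.817.

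For cap recognition, Eif4e was at 104 to 115 CPM in WT (median 107) and 97.5 to 113 in Fmr1 KO (median 107), and its chromosomal position is chr3:138526191-138559696. The medians differed by less than 1 CPM, and the log2 difference was −0.02 ± 0.06 (95% interval −0.14 to 0.10). Per length, Eif4e (21.0 CPM/kb in WT) stood above its relatives Eif4e2 (10.5 CPM/kb), a repressive cap-binding protein, and Eif4e3 (7.22 CPM/kb). Eif4e1b was listed at 0 to 8 reads per library, with 0 reads in 4 libraries, and no fold is given for it.

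The Eif4ebp genes encode repressors that compete with eIF4G for eIF4E, and all 3 were among the 4 most variable members. Eif4ebp2, the main 4E-BP of the brain, was at 7.19 to 13.5 CPM in WT (median 10.6) and 7.15 to 12.1 in Fmr1 KO (median 8.95), with a log2 difference of −0.12 and a wide 95% interval of −0.46 to 0.22. Eif4ebp1 was lower still, at 1.47 to 2.03 CPM in WT (median 1.96) and 1.06 to 2.23 in Fmr1 KO (median 1.81), with a log2 difference of −0.06 (95% interval −0.48 to 0.35). Both genes spread more within each genotype than between them. Eif4ebp3 shared 65.5% of its 50-base stretches with another gene, so its 2.48 to 4.94 CPM in WT (median 3.26) and 3.11 to 4.24 in Fmr1 KO (median 3.66) cannot be ascribed to it with certainty. Its log2 difference was 0.10 ± 0.17 (edgeR adjusted p = 0.942).

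Eif4enif1 encodes 4E-T, the protein that carries eIF4E to P-bodies and the nucleus, and had the lowest p among members with a lower mean in Fmr1 KO. It was at 57.4 to 64.1 CPM in WT (median 61.2) and 53.0 to 60.1 in Fmr1 KO (median 56.6), with overlapping groups. The log2 difference was −0.11 ± 0.06, with an unadjusted p of 0.0707 and an adjusted p of 0.672 in edgeR.

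Per length, the eIF4G scaffolds stood in the same order in both genotypes, with 66.2, 63.3 and 33.7 CPM/kb in WT and 68.0, 62.9 and 32.95 in Fmr1 KO for Eif4g1, Eif4g2 and Eif4g3. Eif4g1, the main bridge between cap and ribosome, was at 385 to 430 CPM in WT (median 395) and 380 to 430 in Fmr1 KO (median 415). Eif4g2 (DAP5), which lacks the eIF4E-binding site, was at 460 to 542 CPM in WT (median 515) and 449 to 562 in Fmr1 KO (median 503), and Eif4g3 was at 328.5 to 367 in WT (median 337) and 307 to 354 in Fmr1 KO (median 337). Log2 differences were 0.04, −0.01 and −0.03, with edgeR adjusted p of 0.928, 0.990 and 0.942. Within libraries, the log2 ratio of Eif4g3 to Eif4g1 was lower in Fmr1 KO by 0.07 (−0.23 ± 0.07 SD in WT and −0.30 ± 0.04 SD in Fmr1 KO, exact permutation p = 0.0563, adjusted p = 0.208 over the 8 pairs).

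Of the eIF4A helicases that unwind the 5′ end, the neuron-enriched Eif4a2 was at 832.5 to 987 CPM in WT (median 870) and 742 to 931 in Fmr1 KO (median 884). Eif4a1 was at 375 to 488.5 CPM in WT (median 389) and 365.5 to 445 in Fmr1 KO (median 417), and 28.4% of its 50-base stretches occur in another gene. Eif4a3, a relative that serves in the exon junction complex rather than in eIF4F, was at 54.1 to 69.3 CPM in WT (median 55.4) and 50.3 to 69.4 in Fmr1 KO (median 60.4). Their log2 differences were −0.07, 0.00 and 0.03, all with an adjusted p of at least 0.882 in edgeR. The log2 ratio of Eif4a2 to Eif4a1 was 1.12 ± 0.08 (SD) in WT and 1.04 ± 0.06 in Fmr1 KO (exact permutation p = 0.0887, adjusted p = 0.208).

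Both cofactors of the helicase were abundant and even. Eif4b was at 350 to 395 CPM in WT (median 365) and 341 to 390 in Fmr1 KO (median 380.0), and Eif4h at 444 to 513 in WT (median 467) and 453 to 509 in Fmr1 KO (median 472). Neither differed beyond its spread, with log2 differences of 0.01 and 0.01, 95% intervals of −0.11 to 0.12 and −0.10 to 0.13, and edgeR adjusted p of 0.990 and 0.986.

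**Figure D4:**
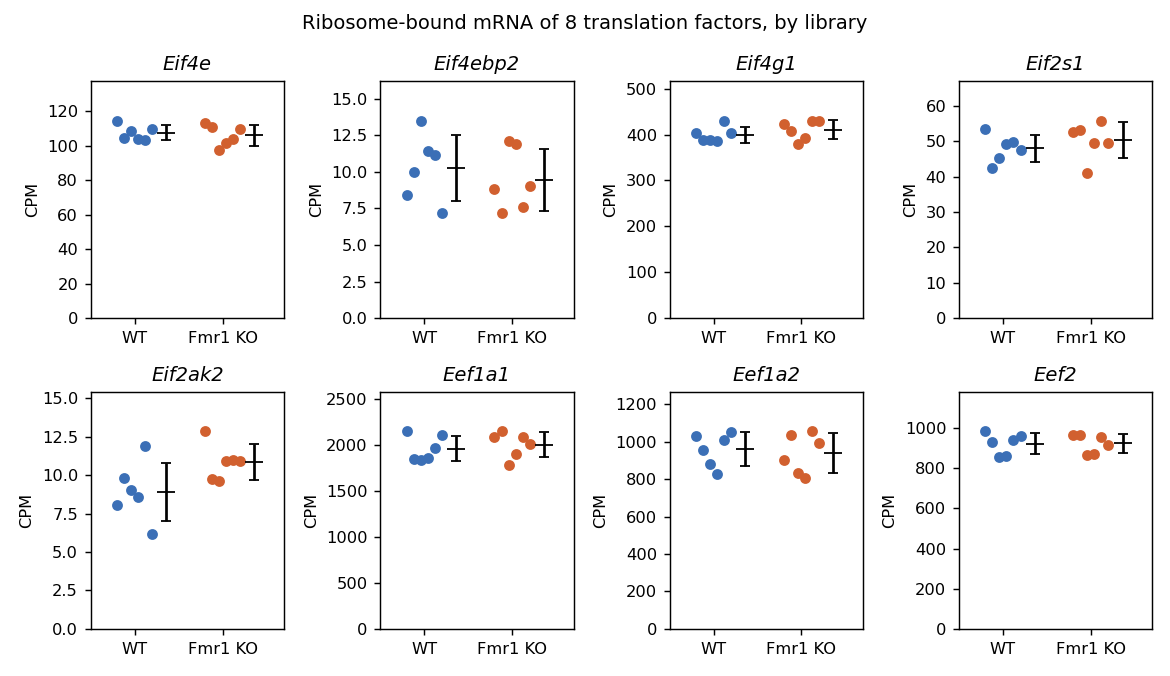
CPM in each library (points) for 8 translation factors of cap binding, ternary complex, stress signalling and elongation, with the mean and SD beside each group of 6; every axis starts at 0. In all 8 panels the Fmr1 KO points overlap the WT points; Eef2 has means of 922 and 923 CPM, and Eif2ak2 has the most separated groups, 6.17 to 11.9 CPM in WT against 9.63 to 12.9 in Fmr1 KO.

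Eef1a1, Eef1a2 and Eef2 were the 3 members with the highest levels per length. Eef1a1 ran from 1834 to 2148 CPM in WT (median 1908) and from 1782 to 2146 in Fmr1 KO (median 2047), and 40.4% of its 50-base stretches occur in another gene. Eef1a2, its neuronal and muscle form, ran from 824.5 to 1051 CPM in WT (median 984) and from 803 to 1055 in Fmr1 KO (median 948) and shared no stretch. Eef1a2 was below Eef1a1 in every library. The log2 differences were 0.03 and −0.03 (edgeR adjusted p 0.948 and 0.958), and the log2 ratio of Eef1a2 to Eef1a1 was −1.03 ± 0.08 (SD) in WT and −1.10 ± 0.10 in Fmr1 KO (exact permutation p = 0.229, adjusted p = 0.367). The exchange subunits Eef1b2, Eef1d and Eef1g had log2 differences of 0.03, 0.02 and 0.04. Eef1e1, a synthetase-complex scaffold and the lowest of its group at 6.99 CPM/kb, was at 16.0 to 20.9 CPM in WT (median 17.5) and 13.0 to 20.3 in Fmr1 KO (median 16.6), with a log2 difference of −0.11 (edgeR adjusted p = 0.866).

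Eef2, the translocase whose phosphorylation slows elongation at active synapses, gave nearly equal values in both genotypes. At chr10:81176631-81182509, it was at 856.5 to 984 CPM in WT (median 935) and 864 to 966 in Fmr1 KO (median 937), with a log2 difference of 0.00 and a 95% interval of −0.12 to 0.12. Its kinase gene Eef2k was at 43.1 to 48.0 CPM in WT (median 47.1) and 42.7 to 46.5 in Fmr1 KO (median 44.2), with a log2 difference of −0.08 (edgeR adjusted p = 0.818). Most WT libraries were above most Fmr1 KO libraries for Eef2k, with overlap. The log2 ratio of Eef2k to Eef2 was −4.31 ± 0.06 (SD) in WT and −4.38 ± 0.08 in Fmr1 KO (exact permutation p = 0.104, adjusted p = 0.208).

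Eif5a, the hypusinated factor that eases peptide bonds at prolines, was at 210 to 265 CPM in WT (median 217) and 206 to 252 in Fmr1 KO (median 236), and its paralog Eif5a2 at 32.8 to 43.9 in WT (median 39.0) and 31.6 to 46.6 in Fmr1 KO (median 38.6). Their log2 differences were 0.02 and 0.00. The paralogs kept their order in each library, with a log2 ratio of −2.58 ± 0.30 (SD) in WT and −2.61 ± 0.27 in Fmr1 KO (exact permutation p = 0.894). Eefsec, which delivers selenocysteine, was at 16.8 to 21.9 CPM in WT and 17.7 to 21.6 in Fmr1 KO, with a log2 difference of 0.00. For the remaining pairs, the log2 ratio of Eif1b to Eif1 differed by 0.01 (exact permutation p = 0.838) and that of Eif4ebp2 to Eif4e by −0.10 (p = 0.619, exact permutation). None of the 8 pairs passed after adjustment, and 0.00216 is the smallest p that 6 against 6 libraries allow.

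Returning to the starts shown above, the 9 members that textbook lists name as TOP mRNAs (Eef1a1, Eef1b2, Eef1d, Eef1g, Eef2, Eif3e, Eif3f, Eif3h and Eif4b) had log2 differences of 0.00 to 0.09, with a median of 0.03 and 9 of 9 above 0. All 9 stayed above 0 with DESeq2 size factors and with total reads, but not when any one of 6 libraries was left out (Fmr1 KO replicates 1, 2, 5 or 6 or WT replicates 3 or 4), and without Fmr1 KO replicate 2 only 5 did. Their lowest edgeR adjusted p was 0.828. Sorted by the letters instead, the 15 members with a pyrimidine run in the window had a median log2 difference of 0.00, with 9 above 0. The 34 with an entry and no run had 0.02, with 23 above 0. Of the TOP list, only Eef1a1, Eef2, Eif3f and Eif4b were among the 15, Eef1b2 had no run and the rest had no entry. These splits were not tested, and a run in the window is a match of letters, not a measured TOP site.

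Beyond the factors themselves, 83 other genes linked to translation were examined, from termination and recycling to mitochondrial factors. They include 19 targets of the integrated stress response, which are not all genes of the translation machinery. Of the 83, 0 passed the adjusted threshold in edgeR or DESeq2. At an unadjusted p of 0.05 by edgeR, 3 were higher and 0 lower, where 4.29% and 3.67% of all genes were. By DESeq2, 4 of the 83 lay under that limit, where 8.47% of all genes did. Phgdh, the first enzyme of serine synthesis and a target of the integrated stress response, was at 45.8 to 63.9 CPM in WT (median 57.0) and 53.1 to 96.4 in Fmr1 KO (median 71.9), with a log2 difference of 0.37 (edgeR unadjusted p = 0.00606, adjusted p = 0.378). Slc3a2, the heavy chain of amino acid transporters and also one of these targets, differed by 0.17 (unadjusted p = 0.0159, adjusted p = 0.493 in edgeR). Qars, the glutaminyl-tRNA synthetase, differed by 0.13 (unadjusted p = 0.0449, adjusted p = 0.618 in edgeR). Astrocytes also express Phgdh strongly, and the sums of the astrocyte genes given above reached higher in Fmr1 KO as well; their part in the Phgdh value was not tested.

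Of the 19 stress-response targets downstream of the eIF2 kinases, 9 were above 0 and 10 below, with a median log2 difference of 0.00. The transcription factor gene Atf4 at its centre was at 107.5 CPM in WT and 103.5 in Fmr1 KO (log2 difference −0.05, edgeR adjusted p = 0.936). Among the 12 regulators of eIF4F, 9 were below 0 and 3 above (3 to 5 above with one library left out, 5 without Fmr1 KO replicate 1 or WT replicate 3), with a median of −0.05. They include Cyfip1, whose protein binds both FMRP and eIF4E (94.0 and 89.7 CPM, log2 difference −0.07), and Larp1, the binder of TOP mRNAs (280 and 270.0 CPM, log2 difference −0.05), and their lowest edgeR adjusted p was 0.655.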

How the data were processed

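Ribosome-bound RNA was sequenced as 50-base reads in 12 libraries, 4 to a lane; which libraries shared a lane is not given in the sources used here. The deposited values are raw counts per gene that the authors made with strand-specific libraries; the submitters' processing notes name bcl2fastq 2.17, TopHat2 2.1.1, Bowtie2 2.2.8, HTSeq 0.6.1p1 and build mm10, and the study's methods give UCSC gene models and union-mode counting. Reads that fit several genes can be lost in such counting, so genes with copies are uncertain. As a rough measure, the percent of 50-base stretches of their GENCODE vM21 transcripts found in another gene was taken (over 10% in 15 members). Matches on either strand were counted, so this percent cannot tell a copy from another gene annotated over the same place.

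Genes with at least 15 reads in total were kept, as in the study. The study tested them with DESeq2; here edgeR 4.0.16 (TMM, quasi-likelihood test, Benjamini-Hochberg adjustment over all 17823 genes, threshold 0.05) was the main test and DESeq2 1.42.0 and limma 3.58.1 were alternatives, in R 4.3.3. CPM are TMM-scaled. CPM/kb divides by union exon length, matched by gene ID for all 62 members. Standard errors come from the F statistic. Within-library log2 ratios were compared with two-sided exact permutation tests in scipy 1.17.1. Scripts were tested on simulated data. Libraries were grouped by their labels, and the main test used all of them. At 39400980 to 65565479 reads per library, counting error matters most for Eif4e1b (41 reads in all), Eif4ebp1 (47 to 111 reads per library) and Eif4ebp3 (98 to 206); p-values reflect counting error and the spread among pools.

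Values by library range and log2 differences were given for 28 members fixed by role and for every member under an unadjusted p of 0.05 or without overlap. They were also given for the highest and lowest of each role and for those next to the read limit (no fold for Eif4e1b). Log2 differences were given for the 3 genes with the lowest p among the other genes linked to translation. Eif4enif1, Eif3c, Ddx3y, Kdm5d, Uty and the further regulators and markers named were chosen after their values were seen. The members and lists were chosen with earlier results of these data known.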

Additional observations from a re-analysis of the deposited data

Results flagged for a closer look

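In each genotype, each member was searched for a library whose gap to the nearest other library exceeded Dixon's critical share of the range for 6 samples. Of 124 such groups, 4 held one, where chance alone would give about 6.2. Eif2s3y in Fmr1 KO replicate 5 was high, at 46.4 CPM against 20.4 to 28.6 in the others (gap of 0.683 of the range). Eif2d in WT replicate 4 was low, at 17.2 CPM against 20.7 to 22.5 (0.671). Eef2k in WT replicate 3 was low, at 43.1 CPM against 46.4 to 48.0 (0.667), and Eif3c in Fmr1 KO replicate 3 was low, at 227 CPM against 247 to 257.5 (0.656).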

How the results depend on the processing

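No member passed an adjusted p of 0.05 in any of the 19 alternatives, and the lowest adjusted p was 0.327 (Eif2s3y, DESeq2). Over all genes, 4 passed by edgeR and 84 by DESeq2, and 2 to 6 with one library left out (2 without Fmr1 KO replicates 1, 4, 5 or 6 or WT replicates 4, 5 or 6). Members lower at an unadjusted p of 0.05 numbered 1 by DESeq2 (Eif4enif1) and 0 to 1 with one library left out (1 without Fmr1 KO replicate 3 or WT replicate 6). Members higher numbered 3 with total reads as the scale and 0 to 2 with one library left out; the count was 0 without Fmr1 KO replicate 5 and 1 without Fmr1 KO replicates 1 or 6 or WT replicates 1, 3, 4 or 6. The 83 other genes gave 5 with total reads and 2 to 5 with one library left out (5 without Fmr1 KO replicates 3 or 4). All genes tested also moved up with total reads, with 58.1% above 0 against 51.35% with TMM. The shares of all genes under the unadjusted limit in these settings are not given here, so these counts have no background beside them. Same-numbered libraries had correlated deviations of −0.081 to 0.090 over all genes and of −0.443 to 0.599 over genes with a mean log2 CPM over 5 (0.382, 0.436 and 0.599 for numbers 1, 3 and 4, −0.443 for number 2, near 0 for numbers 5 and 6); not every pair was positive, and the labels tie no number to a litter or batch, so the numbers were not taken to pair the libraries. With the replicate number as a block, 0 members passed the adjusted threshold, 2 were higher and 0 lower at the unadjusted one, and 4 genes passed in all. The block moved the small log2 differences of Eif4a1 to 0.0032 and of Eif2s2 to 0.0004, across 0. Outside the libraries left out, 10 of 196 values changed sign, all of members near 0: with total reads, Eif4e was at 0.0043, Eif4g2 at 0.0149, Eif4a1 at 0.0236, Eif2s2 at 0.0245 and Eif5a2 at 0.0227; with voom, Eif4a1 was at 0.0027 and Eif2s2 at 0.0016; with the filterByExpr filter, Eif2s2 was at 0.0002. The cause was not tested. With one library left out, 48 of 336 values changed sign. The log2 differences then ran from −0.0391 to 0.0036 for Eif4e, −0.1463 to 0.0422 for Eif4ebp1, −0.0426 to 0.0226 for Eif4g2, −0.0282 to 0.0513 for Eif4a1, −0.0189 to 0.0788 for Eif4a3, −0.0098 to 0.0305 for Eif4b, −0.0088 to 0.036 for Eif4h, −0.0223 to 0.0301 for Eif2s2, −0.0044 to 0.0337 for Eif2s3x, −0.0233 to 0.0732 for Eif2ak4, −0.0079 to 0.0612 for Eif5a, −0.0642 to 0.0493 for Eif5a2, −0.0077 to 0.0973 for Eif6, −0.0749 to 0.0056 for Eef1a2 and −0.0184 to 0.0215 for Eef2, and the ratio differences from −0.0195 to 0.0488 for Eif1b to Eif1 and −0.1152 to 0.0376 for Eif5a2 to Eif5a. Eif2s3y and Eif2ak2 stayed above 0 in all 19 alternatives (0.2131 to 0.4802 and 0.1991 to 0.3838), with adjusted p of 0.327 to 0.830 and 0.486 to 0.880.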
